A study of Oryza sativa Japonica Group with 17 samples.

Results

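The short arm of rice chromosome 4, called heterochromatic in the grouping used here, was examined for i-motif (iM) peaks. All peaks of 10 lists with a summit below 8.2 Mb on chromosome 4 (MSU v7.0) were taken, which gave 20915 of 841685 peaks. The part of the same chromosome above 20 Mb, on the euchromatic long arm, held 30619 peaks and served for comparison. These members were chosen by position alone, and the lists hold no methylation or histone values from which the chromatin state of the arm could be checked.

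An iM is a folded structure of a C-rich DNA strand, in which protonated and unprotonated cytosines pair and strands intercalate. Acidic pH favours this pairing, and a methyl group on cytosine changes its stability. Plant heterochromatin is rich in transposons and carries dense DNA methylation, and the short arm of rice chromosome 4 is a well known heterochromatic arm. In iM-IP-seq, fragmented genomic DNA is denatured and refolded in a buffer of known pH, so that chromatin is no longer present, and folded fragments are pulled down with the iMab antibody.

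The DNA came from seedlings of Nipponbare, a japonica rice cultivar, and was assayed in 5 conditions with 2 merged iMab IP libraries each, among 17 libraries in all. CK DNA was untreated and assayed at pH 7.0. Hypermethylated DNA was purified genomic DNA methylated in the tube with M.CviPI, and demethylated DNA came from seedlings grown with 80 µM zebularine, an inhibitor of DNA methyltransferases. Both were assayed at pH 7.0 and pH 5.5. Thus 1 methylation change was made on naked DNA and the other in living plants, which were also of another age than the CK seedlings. CK at pH 5.5 was not analysed here.

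Each condition had a list called relative to input and a list called relative to IgG, and common peaks are those of the input list with an overlap of 1 bp or more in the IgG list. Among the libraries examined there were 2 inputs, for hypermethylated and demethylated DNA, so the input behind the CK list was not analysed here, and comparisons of CK with treated lists relative to input rest on different controls. Replicates were merged before peak calling, so no replicate error could be calculated and no test between conditions was possible. All intervals below are 95% intervals that cover counting error only, except that of a median width, which covers the spread among peaks of merged lists. The background coverage recovered from the peak scores ranged from 4.78 to 14.4 fragments over the 10 lists, and it was lowest in the demethylated pH 5.5 list called relative to IgG. The label of the demethylated pH 7.0 IP libraries names a hypermethylated list. The list named for demethylated DNA shared 47.8% of its summits with the IgG list of its own condition and 1.72% with that of hypermethylated DNA at pH 7.0, so it was used under its own name.

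To ask how dense iM peaks were on the short arm, common peaks per Mb were compared between the arms. The short arm was denser than the long arm in 4 of 5 conditions, and the arms did not differ beyond counting error in demethylated DNA at pH 5.5. In CK at pH 7.0, 1480 common peaks gave 180.5 per Mb on the short arm, against 1875 peaks and 120.9 per Mb on the long arm. The ratio was 1.49 (1.39 to 1.60). All chromosomes together held 147.5 per Mb, so the short arm was at 1.22 and the long arm at 0.820 times the genome density. Hypermethylated DNA at pH 7.0 gave 1750 short-arm peaks, and the ratio of densities was 1.37 (1.29 to 1.46). Demethylated DNA at pH 7.0 gave 1952 peaks, with a ratio of 1.49 (1.40 to 1.58). At pH 5.5, hypermethylated DNA gave 2082 peaks, the highest number on this arm, with a ratio of 1.35 (1.28 to 1.43). In these 4 conditions the short arm was at 1.15 to 1.22 times the genome density, and the long arm at 0.815 to 0.856 times. The ratios thus reflect a sparse long arm as well as a dense short arm. Demethylated DNA at pH 5.5 gave 1633 peaks on the short arm and 3054 on the long arm. These corresponded to 199.1 and 197.0 peaks per Mb, with a ratio of 1.01 (0.951 to 1.07). Both arms were close to the 203.4 per Mb of the genome in this condition. Zebularine-derived DNA thus had 238.0 short-arm peaks per Mb at pH 7.0 and fewer at pH 5.5, while its long-arm density went from 159.7 to 197.0.

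**Figure D1:**
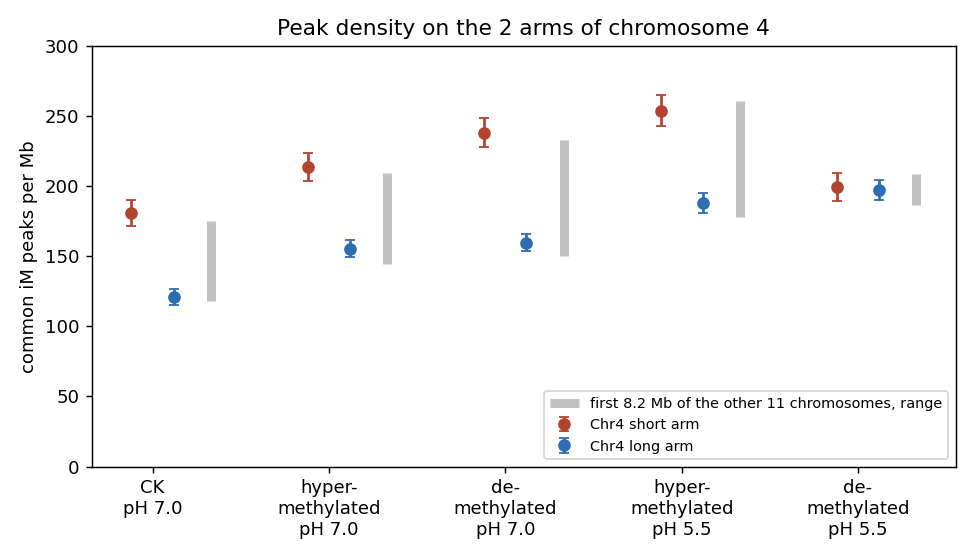
Common iM peaks per Mb on the short arm (red) and long arm (blue) of chromosome 4 in the 5 conditions, with 95% Poisson intervals of counting error, and the range over the first 8.2 Mb of the other 11 chromosomes (grey). The red points lie above the blue points in 4 conditions, and both points meet near 197.0 to 199.1 peaks per Mb in demethylated DNA at pH 5.5.

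The short arm is also a chromosome end, so it was set beside the first 8.2 Mb of the other 11 chromosomes. In CK these stretches held 118.0 to 174.9 peaks per Mb, all 11 below the 180.5 of the short arm of chromosome 4. The same held at pH 7.0 for hypermethylated DNA (144.8 to 209.0, beside 213.4) and demethylated DNA (150.1 to 233.2, beside 238.0). The densest of these stretches thus came close to the short arm each time. At pH 5.5, 10 of the 11 were below it in hypermethylated DNA and 4 of the 11 in demethylated DNA.

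The density of demethylated DNA at pH 5.5 depended on the control used for peak calling. Against input, its short arm held 2850 peaks, the most of any input-called list on this arm. These were 347.6 per Mb, above all 11 stretches of other chromosomes, which reached 343.7. Against IgG it held 1737 peaks, the fewest of any IgG-called list on this arm. The ratio of the arms was 1.11 with input and 1.01 with IgG. CK also differed between controls, with a ratio of 1.59 for input-called and 1.19 for IgG-called peaks. In the other 3 conditions the ratio was between 1.34 and 1.46 with either control.

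To see how often a short-arm peak was found with both controls, the share of common peaks among input-called peaks was calculated. Over all chromosomes this share was 95.5% in CK. At pH 7.0 it was 95.1% after hypermethylation and 90.5% after demethylation, and at pH 5.5 it was 89.8% and 62.3%, respectively. On the short arm of CK it was 90.9% (89.4 to 92.2), and 148 input-called peaks had no IgG-called partner. The long-arm share was 97.1%, and the short arm minus the long arm gave -6.19 points (-7.82 to -4.64). Hypermethylated DNA gave 96.0% at pH 7.0 and 89.4% at pH 5.5, both within counting error of the long arm. In demethylated DNA at pH 7.0 the share was 93.1%, which was 4.64 points (3.02 to 6.23) above the long arm. At pH 5.5 it was 57.3% (55.5 to 59.1), leaving 1217 short-arm peaks with support from input only. The long-arm share was 63.0%, and the difference was -5.71 points (-7.98 to -3.44). Read from the other side, 99.4% of the IgG-called short-arm peaks of this condition overlapped an input-called peak, beside 99.5% over the genome. In CK 65.7% did, beside 56.6% over the genome and 52.4% on the long arm, and 756 of its IgG-called short-arm peaks had no input-called partner.

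The median width of common peaks was larger on the short arm than on the long arm in the 5 conditions, by least in demethylated DNA at pH 5.5. The median width was 296.5 bp in CK, 489 bp in hypermethylated and 460.5 bp in demethylated DNA at pH 7.0, and 318.5 and 345 bp in these at pH 5.5. The corresponding long-arm medians were 269, 417, 403, 285 and 333 bp. The difference was 12 bp in demethylated DNA at pH 5.5, with an approximate normal interval from -6.90 to 30.9 bp. This interval takes the peaks of a merged list as independent and the widths as normal, so it is only a rough guide. Peaks of at least 1 kb (1000 bp) made up 4.66% of short-arm and 1.81% of long-arm peaks in CK. At pH 7.0 these shares were 18.3% and 10.0% after hypermethylation, and 16.5% and 10.3% after demethylation. At pH 5.5 they were 7.78% and 3.60% after hypermethylation, and 3.18% and 2.75% after demethylation. Through both number and width, peaks covered 7.25% of the short arm and 4.01% of the long arm in CK, and up to 15.4% of the short arm in demethylated DNA at pH 7.0. At pH 5.5 the latter had 8.45% and 8.00% covered. The median spacing between neighbouring short-arm summits was 3092 bp in CK, and the long arm had 5102.5 bp.

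The height of the peaks differed little between the arms. The fold is the ratio of IP fragments to the local control level at the summit. Its short-arm median relative to input was 3.67 in CK, 4.91 in hypermethylated DNA and 3.76 in demethylated DNA at pH 7.0, and 4.23 and 5.23 in these at pH 5.5. The long-arm medians were 3.48, 4.59, 3.67, 4.14 and 5.15. The short-arm median was thus slightly the higher in each condition.

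The level of the control itself also differed between the arms. MACS2 sets the expected level at a summit (lambda) from the surrounding control reads, with the background coverage as its minimum. Relative to input, lambda was above that minimum at 80.4% of the short-arm summits of CK and at 89.5% of its long-arm summits. The short arm was lower in the other 4 conditions as well, at 52.6% to 67.8% against 62.8% to 76.6%. With IgG as control, CK showed the opposite order, at 63.0% on the short arm and 55.04% on the long arm. When common peaks at the minimum lambda were counted alone, the density ratio of the arms was higher in the 5 conditions, at 2.78 in CK and 1.46 in demethylated DNA at pH 5.5. This largely follows from the shares relative to input given above and is not a separate result. The part of the control level in the density of the arms was not tested further.

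To localise the peaks along the arm, they were counted in 16 bins of 500 kb. CK bins held 60 to 131 common peaks with a median of 90.5, and 14 of the 16 were above the median of all 741 bins of the genome, which was 72. The bin from 3 to 3.5 Mb was the densest in 4 conditions. It held 131 peaks in CK, 153 in hypermethylated and 174 in demethylated DNA at pH 7.0, and 179 in hypermethylated DNA at pH 5.5. The demethylated pH 5.5 list had 115 peaks in this bin, and its densest was the chromosome end from 0 to 0.5 Mb, with 119. The bin from 4.5 to 5 Mb was the sparsest in CK with 60 peaks, after hypermethylation with 78 at pH 7.0 and 89 at pH 5.5, and in the demethylated pH 5.5 list with 68. In demethylated DNA at pH 7.0 it held 92 peaks, and the sparsest bin was that from 0.5 to 1 Mb, with 91.

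The bins moved in 1 direction along nearly the whole arm. At pH 5.5 demethylated DNA had fewer peaks than at neutral pH in 14 of 16 short-arm bins, by a median ratio of 0.861 and a lowest ratio of 0.639. On the long arm it had more peaks at pH 5.5 in 27 of 31 bins, with a median ratio of 1.24. The 23 bins between the arms resembled the short arm, with fewer peaks at pH 5.5 in 19 and more in 4, so the decrease was not confined to the stretch below 8.2 Mb. Hypermethylated DNA had more peaks at pH 5.5 in 16 of 16 short-arm bins and 31 of 31 long-arm bins. At pH 7.0, both treated DNAs had more peaks than CK in all 16 short-arm bins and in all 31 long-arm bins. Of the 23 bins between the arms, hypermethylated DNA had more than CK in 21 and demethylated DNA in all 23. These directions hold for common peaks, and bins were not counted with the other lists. Over the whole short arm at pH 7.0, IgG-called peaks numbered 2201 in CK, 1850 in hypermethylated and 2102 in demethylated DNA. Input-called peaks of demethylated DNA numbered 2850 at pH 5.5 and 2096 at pH 7.0. Both orders were thus opposite to those of common peaks.

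**Figure D2:**
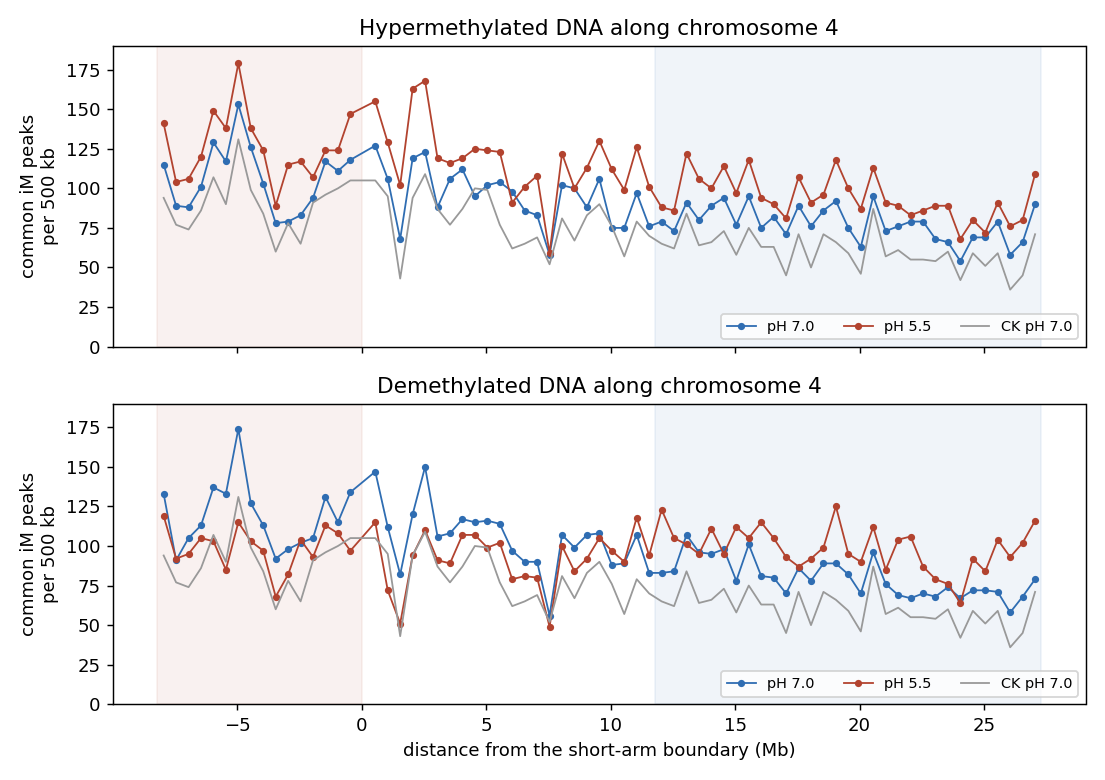
Common iM peaks per 500 kb along chromosome 4 against the distance from the short-arm boundary in Mb, for hypermethylated DNA (upper) and demethylated DNA (lower) at pH 7.0 (blue) and pH 5.5 (red), with CK at pH 7.0 in grey in both. The short arm is shaded red and the long arm blue. In the lower plot the red line lies under the blue line in 14 of 16 short-arm bins and above it in 27 of 31 long-arm bins.

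To compare conditions peak by peak, a common peak was called specific when it overlapped no common peak of the other condition, and shared otherwise. The log2 ratio of specific peaks was calculated for each arm in 6 comparisons. For the other 11 chromosomes it was calculated over each as a whole, so like stretches of these were not compared with the short arm. These comparisons share conditions and controls, so they are not independent of each other.

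Demethylated DNA had fewer specific common peaks at pH 5.5 on the short arm and more on the long arm. On the short arm, 408 peaks were specific to pH 5.5 and 825 to pH 7.0. They made up 24.98% of the pH 5.5 peaks and 42.3% of the pH 7.0 peaks, where 35.6% and 37.1% were specific over the genome. The log2 ratio was -1.02 (-1.19 to -0.84). On the long arm, 1384 and 894 peaks were specific, with a log2 ratio of 0.63 (0.51 to 0.75). The difference between the arms was -1.65 (-1.86 to -1.44). The other 11 chromosomes, each taken whole, lay between -0.43 and 0.54, all above the short arm and all below the long arm. The short-arm value turned to 0.89 with input-called peaks and to 0.33 with a fold of at least 4, and was -1.17 with IgG-called peaks. The difference from the long arm stayed negative under the 11 other settings tried, between -1.71 and -1.10.

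Hypermethylated DNA had more specific common peaks at pH 5.5 on the other 11 chromosomes, and also on the short arm of chromosome 4. Here 473 peaks were specific to pH 5.5 and 323 to pH 7.0, which were 22.7% and 18.5% of the common peaks on this arm. Over the genome 28.4% and 20.6% were specific. The log2 ratio was 0.55 (0.34 to 0.76), against 0.66 (0.51 to 0.81) on the long arm. The other 11 chromosomes lay between 0.62 and 0.94, all above the short arm. The difference between the arms was -0.11, with an interval from -0.36 to 0.14. The short-arm ratio turned negative at a fold minimum of 4 (-0.84) and with the top 20000 peaks of each condition (-0.49). The effect of pH in hypermethylated DNA exceeded that in demethylated DNA by 1.57 (1.30 to 1.83) on the short arm and by 0.03 (-0.16 to 0.22) on the long arm, as differences of log2 ratios from merged libraries. These were not tested over replicates.

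At pH 7.0 both treated DNAs had more specific common peaks on the short arm than CK, but not when IgG-called peaks were used alone. In hypermethylated DNA 576 peaks were specific against 175 in CK, or 32.9% and 11.8% of the short-arm peaks, where the genome had 36.3% and 13.6%. The log2 ratio was 1.72 (1.47 to 1.97), within the range of the other 11 chromosomes, which was 1.52 to 1.86. The long arm gave 1.81 (1.62 to 2.01), with a difference of -0.09 (-0.41 to 0.22). This difference depended on the setting. It was 1.10 (0.83 to 1.37) with IgG-called peaks, 0.59 (0.20 to 0.98) with the top 20000 peaks, -0.33 (-0.66 to -0.01) with input-called peaks and -0.45 (-0.77 to -0.14) with these after all lists were scaled down to the lowest background coverage, here called one coverage. The short-arm ratio itself was -0.68 with IgG-called peaks. Demethylated DNA had 728 specific peaks against 114 in CK, or 37.3% and 7.70%. The genome had 38.6% and 10.6%. The log2 ratio was 2.67 (2.39 to 2.97) on the short arm and 1.92 (1.72 to 2.12) on the long arm, a difference of 0.76 (0.41 to 1.10). The other 11 chromosomes gave 2.05 to 2.42, all below the short arm and all above the long arm. With IgG-called peaks the short-arm ratio was 0.15 (-0.05 to 0.35). With IgG-called peaks at one coverage it was -0.48 (-0.68 to -0.27), so that CK then had more specific peaks. With common peaks at one coverage it was 1.91 (1.65 to 2.18). The difference between the arms was 1.57 with IgG-called peaks, but its interval included 0 at a fold minimum of 4, where it was 0.28 (-0.07 to 0.64), and with input-called peaks at one coverage, where it was 0.25 (-0.09 to 0.59).

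The treated DNAs were also compared with each other at each pH. At pH 7.0, 223 short-arm peaks were specific to hypermethylated and 419 to demethylated DNA, which were 12.7% and 21.5%, beside 17.8% and 23.5% over the genome. The log2 ratio was -0.91 (-1.15 to -0.67) on the short arm and -0.12 (-0.29 to 0.05) on the long arm, with a difference of -0.79 (-1.08 to -0.50). The other 11 chromosomes lay between these, from -0.79 to -0.32. The short-arm ratio turned to 2.64 with a fold of at least 4 and to 0.23 with the top 20000 peaks. At pH 5.5 the order was opposite, with 907 peaks specific to hypermethylated and 442 to demethylated DNA. These were 43.6% and 27.1% of the short-arm peaks, where the genome had 41% and 36.1%. The log2 ratio was 1.04 (0.87 to 1.20), against -0.19 (-0.30 to -0.07) on the long arm, and the difference was 1.22 (1.03 to 1.42). With input-called peaks the short-arm ratio was -0.69, while the difference was 0.67. The other 11 chromosomes lay between -0.12 and 0.71, all below the short arm and all above the long arm.

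**Figure D3:**
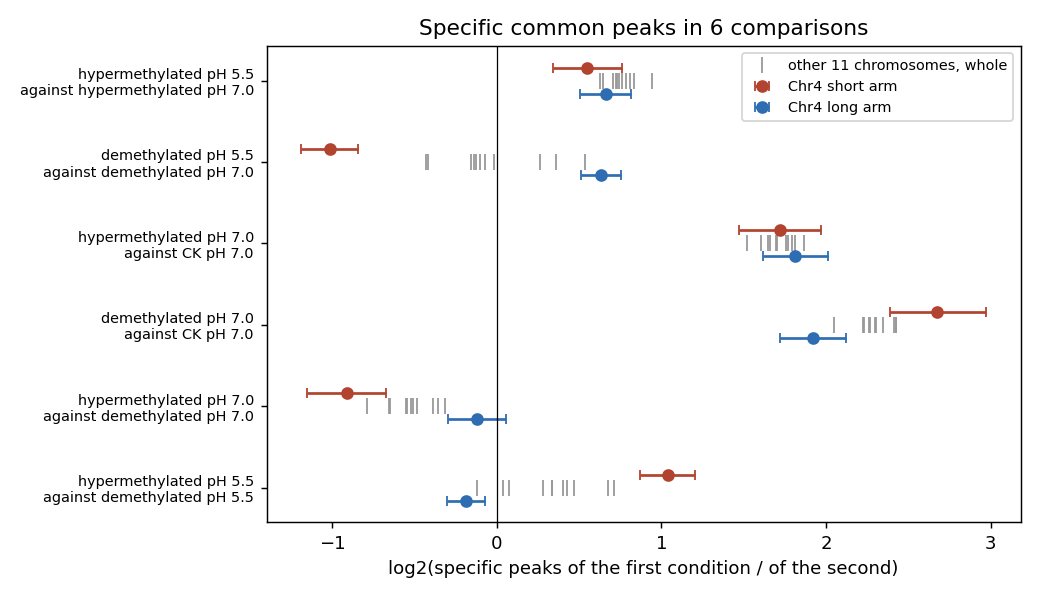
Log2 ratio of specific common peaks in the 6 comparisons on the short arm (red) and long arm (blue) with 95% counting intervals, and on each of the other 11 chromosomes as a whole (grey ticks). The red point lies outside the range of the grey ticks in 5 comparisons, and farthest from the blue point for demethylated DNA at pH 5.5 against pH 7.0 (-1.02 and 0.63). The blue point lies outside this range on the other side for demethylated DNA at pH 5.5 against pH 7.0 and against CK. It also does so in both comparisons of hypermethylated with demethylated DNA.

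**Figure D4:**
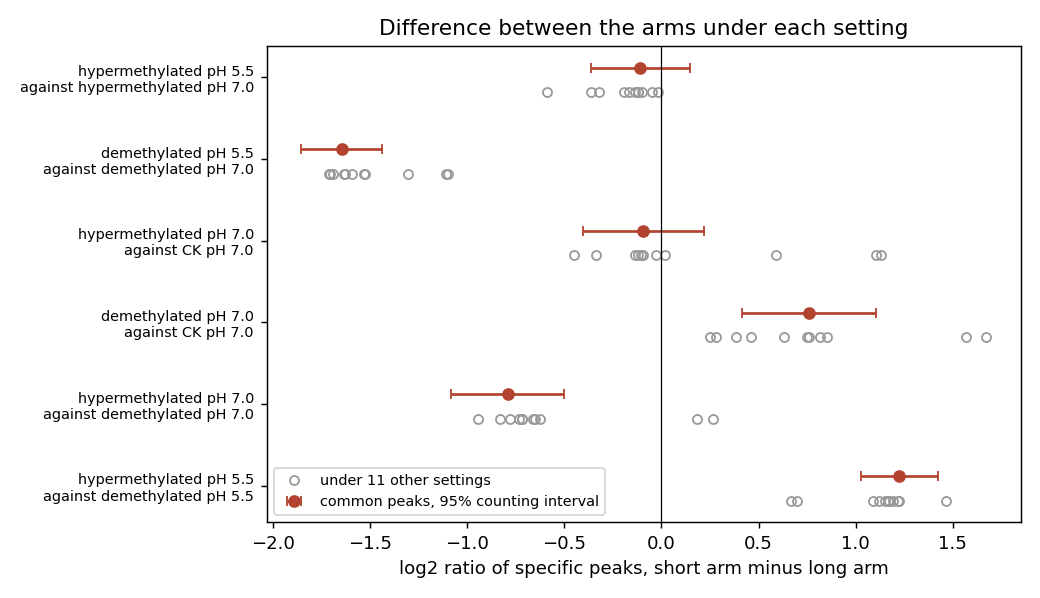
Log2 ratio of specific peaks on the short arm minus that on the long arm in the 6 comparisons, with common peaks (red, 95% counting interval) and under the 11 other settings (open grey circles). All circles are below 0 for demethylated DNA at pH 5.5 against pH 7.0, and above 0 for demethylated DNA against CK and for hypermethylated against demethylated DNA at pH 5.5.

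Where a short-arm peak was shared by 2 conditions, its fold could be compared. In demethylated DNA, 1092 shared short-arm peaks had a median log2 ratio of folds of 0.41 at pH 5.5 against pH 7.0, and 71.2% were higher at pH 5.5. On the long arm the median was 0.69, with 82.0% higher, and over the genome it was 0.58, with 79.4% higher. The shift at shared short-arm peaks was thus smaller than over the genome. In hypermethylated DNA the median was -0.17 on the short arm and -0.07 on the long arm. At pH 7.0, the folds of hypermethylated DNA were above those of CK by a median of 0.55, and those of demethylated DNA by 0.23. The long arm gave 0.60 and 0.28. The fold depends on the scaling and coverage of each list, and the part of these in the medians was not tested.

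To see which stretches carried peaks in several conditions, overlapping common peaks of the 5 conditions were joined. This gave 2614 regions on the short arm, 4336 on the long arm and 113086 in the genome. Regions with a peak in all 5 conditions numbered 774 on the short arm, or 29.6% (27.9 to 31.4), beside 26.6% over the genome. The long-arm share was 22.2%, and the arms differed by 7.38 points (5.24 to 9.53). Regions with a peak in 1 condition made up 26.3% of the short arm, where the genome had 30.6% and the long arm 34.8%. On the short arm, the most frequent pattern after all 5 conditions lacked demethylated DNA at pH 5.5 alone. It held 251 regions, or 9.60%, beside 6.52% over the genome and 5.95% on the long arm. Of these 251 regions, 154 had an input-called peak of that condition, 1 had an IgG-called peak and 96 had neither. The long arm was similar, with an input-called peak of that condition in 146 of 258 such regions. These were 56.6%, beside 61.4% on the short arm, and 43.4% and 38.2% had neither. Regions found in that condition alone made up 9.03% of the short arm, 18.9% of the long arm and 13.8% of the genome. In the 774 regions of all 5 conditions, the median fold was 4.02 in CK, 7.41 in hypermethylated and 5.24 in demethylated DNA at pH 7.0, and 6.17 and 6.35 in these at pH 5.5. On the long arm the folds were lower in the first 4 conditions, and higher in demethylated DNA at pH 5.5, at 7.23.

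**Figure D5:**
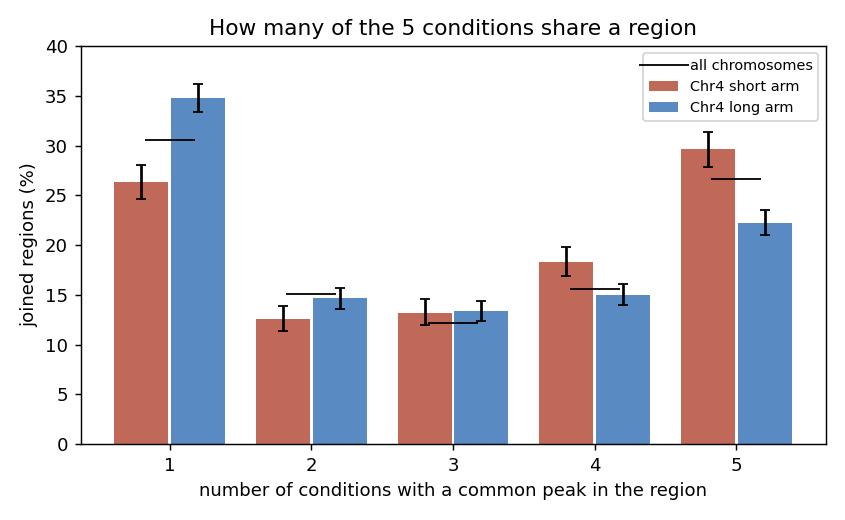
Share of joined regions, in percent, by the number of conditions with a common peak in the region, on the short arm (red) and long arm (blue) with 95% Wilson intervals, and over all chromosomes (black lines). The short arm is above the long arm at 5 conditions (29.6% and 22.2%) and below it at 1 condition (26.3% and 34.8%).

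Single peaks of the short arm showed how far the conditions could differ at 1 place. The peak with the highest -log10 q-value relative to input lay at the very start of the chromosome, at chr4:1015-2171 in hypermethylated DNA at pH 7.0. Its fold was 48.9 there and 48.7 at pH 5.5, while demethylated DNA had 14.6 at pH 7.0 and CK had 3.24. In CK lambda was 35.1 times the background at this place and the IP pileup was 1403 fragments, beside 3.01 times the background and 1732 fragments in the hypermethylated pH 7.0 list. CK thus had a similar number of IP fragments here over a far higher input level. In demethylated DNA at pH 5.5 the input-called fold was 6.92 and no IgG-called peak was present, so that this place was the top specific peak for demethylated DNA at pH 7.0 against pH 5.5. The sequence of this place was not analysed here.

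A second place, at chr4:7074276-7075054 in demethylated DNA at pH 7.0, had a fold of 24.7 there, 29.3 in hypermethylated DNA at pH 7.0, 43.1 at pH 5.5 and 12.6 in CK. It was lowest in demethylated DNA at pH 5.5, at 4.65. The opposite was seen at chr4:1640459-1640829, where demethylated DNA had a fold of 19.5 at pH 5.5 and 3.72 at pH 7.0. Hypermethylated DNA had 10.4 and 13.3 there, and CK had 4.40. Demethylated DNA was thus higher at pH 7.0 at one of these places and higher at pH 5.5 at the other.

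Other places were high in all 5 conditions, with folds given here relative to input unless stated. The region chr4:1618202-1619275 had folds of 11.6 in CK, 13.4 in hypermethylated and 10.5 in demethylated DNA at pH 7.0, and 10.1 and 13.8 in these at pH 5.5. At chr4:186086-186599 the folds were between 9.82 and 17.05. At chr4:5113072-5113923 CK was lowest, at 9.39, and hypermethylated DNA at pH 7.0 highest, at 31.3. The order depended on the control. Relative to IgG, demethylated DNA at pH 5.5 was lowest at each of these places, at 6.21, 5.54 and 5.94, and CK had 13.06 at the last. The widest common peak of CK spanned 2036 bp at chr4:7767106-7769141 and had a fold of 7.14, and it overlapped common peaks of the other 4 conditions with folds of 4.85 to 13.2.

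The top specific peaks were often present in the other condition with 1 of the controls. The strongest peak of hypermethylated DNA at pH 5.5 without a common peak at pH 7.0 was chr4:5738787-5739048, with a fold of 11.01. An IgG-called peak of fold 3.86 was there at pH 7.0. In the other direction, chr4:2181745-2182335 had a fold of 11.99 at pH 7.0, and an input-called peak of fold 7.73 was there at pH 5.5. The strongest peak of demethylated DNA at pH 5.5 against both pH 7.0 and hypermethylated DNA at pH 5.5 was chr4:321242-321607, with a fold of 10.3. Demethylated DNA at pH 7.0 had no peak there in either list, and hypermethylated DNA at pH 5.5 had an input-called peak of fold 3.86.

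Against CK, the strongest specific peak of hypermethylated DNA at pH 7.0 was chr4:7995949-7996901, with a fold of 17.1, where CK had an IgG-called peak of fold 8.84. That of demethylated DNA was chr4:3966478-3967129, with a fold of 8.24, where CK had an input-called peak of fold 3.55. The strongest CK peak without a common peak of hypermethylated DNA at pH 7.0 was chr4:1676686-1676923, with a fold of 7.46. There hypermethylated DNA had an IgG-called peak of fold 4.59 at pH 7.0 and a common peak of fold 4.07 at pH 5.5. The strongest CK peak without a common peak of demethylated DNA at pH 7.0 was chr4:4939670-4939871, with a fold of 7.33, where demethylated DNA had a fold of 7.73 at pH 5.5. Between the treated DNAs at pH 7.0, chr4:6584668-6585239 was specific to hypermethylated DNA with a fold of 9.42, and demethylated DNA had no peak there at either pH. For demethylated DNA it was chr4:1205061-1205372, with a fold of 5.31, where hypermethylated DNA had an input-called peak of fold 3.99. Of the peaks on either side of the 8.2 Mb boundary in CK, the last inside was chr4:8195563-8195856 with a fold of 4.34 and the first outside chr4:8204181-8204480 with a fold of 5.52. Each other condition had its own last and first peak, not always at these places. Their folds were 3.40 to 7.02 inside and 2.73 to 4.91 outside.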

How the data were processed

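The authors mapped the iM-IP-seq reads on MSU v7.0 (BWA), kept alignments of quality 10 or more (SAMtools), dropped duplicate fragments (Picard) and pooled the 2 IP libraries of a condition. Peaks were called with MACS2 2.1.1 (paired-end input, q-value limit 0.05), against input or IgG. The deposited lists give each peak's position, summit, fold enrichment (a ratio of IP pileup to lambda), a −log10 p-value, and a significance score, which is the −log10 of the authors' q-value. The lists state no depth. The background coverage and scaling were solved from the deposited fold and −log10 p-value at each summit, with a tolerance of 0.01, and every peak of the 10 lists had a solution. This step and the overlaps were tested on simulated data.

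Overlap counts, arm densities and ratios were computed with python 3.11.15, numpy 2.4.6, scipy 1.17.1 and pandas 2.3.3. The long arm was taken to end at the largest peak end on the chromosome, 35502694 bp, and assembly gaps were not excluded. Intervals are Wilson intervals for shares, Newcombe intervals for differences of shares and exact conditional binomial intervals for ratios, at 95%. Differences of log2 ratios and of median widths have normal intervals, also at 95%. Neighbouring peaks are not independent, so these intervals may be too narrow. Named peaks are, per condition, the 2 common short-arm peaks that rank first by input-called −log10 q-value, per comparison and side the top specific peak, the 3 regions of all 5 conditions with the highest minimum fold, the widest CK peak and the boundary peaks. The members, the named-peak rule and the alternatives were chosen with earlier results of these data known. Sequence composition and gene overlap were intended but not analysed here, as no MSU v7.0 sequence or annotation was used.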

Additional observations from a re-analysis of the deposited data

Results flagged for a closer look

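With common peaks on the short arm, the change from pH 7.0 to pH 5.5 had opposite directions in the 2 treated DNAs. The log2 ratio of specific peaks was 0.55 in hypermethylated and -1.02 in demethylated DNA, a difference of 1.57 (1.30 to 1.83, counting error only). This difference was not tested, since each condition was a single merged list. With input-called peaks alone the 2 ratios were both positive, at 1.04 and 0.89. With the top 20000 peaks both were negative, at -0.49 and -1.19, and at a fold minimum of 4 their order was the opposite, at -0.84 and 0.33.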

How the results depend on the processing

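No paired analysis was possible because the replicates were merged before peak calling, and leaving out a replicate was not run for the same reason. In all, 36 results were recomputed under the alternatives, which gave 220 values. Of these, 138 were within the interval of the reported value or kept its direction where no interval applied, 68 were outside it in the same direction or where no direction was called, and 14 had the opposite direction. Some of the 138 could not have come out otherwise. A long arm above 25 Mb leaves the short-arm log2 ratios unchanged, and a width difference divided by the smallest width of the list keeps its direction. One coverage for all lists (4.78), for input-called or IgG-called lists by themselves, was added after seeing the data.

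The density ratio of the arms stayed above 1 in CK and in the other conditions but demethylated DNA at pH 5.5 under all alternatives. With IgG-called peaks it was 1.19 in CK (1.17 at one coverage), and with input-called peaks 1.11 in demethylated DNA at pH 5.5 (1.09 at one coverage). In bases covered it was 1.81 in CK, 1.66 and 1.78 in hypermethylated and demethylated DNA at pH 7.0, and 1.61 in hypermethylated DNA at pH 5.5. With peaks at background lambda it was 2.78 in CK, 1.74 and 1.88 in hypermethylated and demethylated DNA at pH 7.0, and 1.80 and 1.46 in these at pH 5.5. A rise was given in advance by the lower short-arm shares above the minimum lambda, so this setting is no independent check. At a fold minimum of 4 it was 1.48 and 1.63 in hypermethylated and demethylated DNA at pH 7.0, and 1.43 in hypermethylated DNA at pH 5.5. With the top 20000 peaks it was 1.78, 1.68, 1.57 and 0.892 in hypermethylated DNA at pH 7.0, demethylated DNA at pH 7.0, hypermethylated DNA at pH 5.5 and demethylated DNA at pH 5.5. With a long arm above 25 Mb it was 1.59 in demethylated DNA at pH 7.0.

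The log2 ratio of specific short-arm peaks depended far more on the setting. For demethylated DNA at pH 5.5 against pH 7.0 it was 0.89 with input-called peaks (1.18 at one coverage), 0.33 at a fold minimum of 4, -1.32 with a −log10 q-value of at least 5, -1.19 with the top 20000 peaks, and -0.48 at one coverage (-0.60 with IgG-called peaks). For hypermethylated DNA at pH 5.5 against pH 7.0 it was 1.04 with input-called peaks (1.03 at one coverage), 0.070 with a −log10 q-value of at least 5, -0.84 at a fold minimum of 4 and -0.49 with the top 20000 peaks. For hypermethylated DNA against CK it was -0.68 with IgG-called peaks (-0.81 at one coverage), 2.28 with a −log10 q-value of at least 5, 2.96 at a fold minimum of 4, 0.66 with the top 20000 peaks, and 1.46 at one coverage (1.31 with input-called peaks). For demethylated DNA against CK it was 0.15 with IgG-called peaks (-0.48 at one coverage), 1.47 at a fold minimum of 4, 0.54 with the top 20000 peaks, and 1.91 at one coverage (2.12 with input-called peaks). For hypermethylated against demethylated DNA at pH 7.0 it was -1.25 with input-called peaks, -0.61 with a −log10 q-value of at least 5, 2.64 at a fold minimum of 4, 0.23 with the top 20000 peaks, and -0.37 at one coverage (-0.45 with IgG-called peaks). Its difference from the long arm also changed sign, to 0.27 at a fold minimum of 4 and 0.19 with the top 20000 peaks. For hypermethylated against demethylated DNA at pH 5.5 it was -0.69 with input-called peaks (-0.68 at one coverage), 1.23 with a −log10 q-value of at least 5, 0.38 at a fold minimum of 4 and 0.83 at one coverage. The cause of these changes was not tested.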
